A study of Canis lupus familiaris with 12 samples.

Results

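The genes described here belong to the endothelin, renin-angiotensin and nitric oxide systems, which set the tone of blood vessels and act on heart muscle and connective tissue. They were chosen by name from 9 symbols, of which 5 matched a row among the 24223 genes of each table: EDN1, ECE1, EDNRA, EDNRB and NOS2. The other 4, AGT, AGTR1, ACE and NOS3, matched no row and were not analysed here. RNA sequencing was done on left ventricle and mitral valve from dogs with degenerative mitral valve disease (DMVD), in which the valve leaflets thicken and leak, and from control dogs.

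In the endothelin system, a precursor encoded by EDN1 is cut to the active peptide by the membrane protease ECE1. The peptide acts through 2 G-protein-coupled receptors: EDNRA, which mainly mediates contraction in smooth muscle, and EDNRB, which on endothelium mediates release of nitric oxide and prostacyclin and removes endothelin from the blood. Nitric oxide is made by synthases, of which the inducible form, NOS2, is best known from activated macrophages and other cells exposed to cytokines. Nitric oxide relaxes smooth muscle through soluble guanylate cyclase and cyclic GMP.

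The DMVD ventricle group had 2 libraries, 1 from a 5-year-old Jack Russell Terrier and 1 from a 9-year-old Pomeranian. The control ventricle group had 4, from an 8-year-old Beagle and 3-year-old dogs labelled Hound mix. The DMVD valve group had 3 libraries, from that Pomeranian and from Beagles aged 16 and 17 years. The control valve group also had 3, from that 8-year-old Beagle and from 3-year-old Hound mix dogs. By sample number, breed and age these were 8 dogs, of which 1 DMVD dog and 3 control dogs gave both tissues. Disease, breed and age cannot be told apart in either tissue, because the DMVD dogs were of other breeds than the controls or, among the Beagles, older.

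Each table gives 1 value per group, in a unit (FPKM) that counts sequenced fragments relative to gene length and library size. No value per library was used, so the spread between dogs is not shown and the depth of a library is unknown. Log2 fold changes are DMVD over control throughout. They are followed by ± and a standard error (SE) derived from the test statistic of the authors. A gene passed where its two-sided p, adjusted by Benjamini-Hochberg over all tested genes of the tissue, was at or under 0.05. In the left ventricle 425 of 13788 tested genes passed (3.08%), and in the mitral valve 62 of 14810 passed (0.419%). The ventricle libraries carried heart muscle transcripts at high levels. The summed value for 7 cardiomyocyte markers was 19957 FPKM in DMVD and 20827 FPKM in control in the authors' deposited table. MYH7 adds 1637 FPKM to the DMVD sum and 0 to the control sum. Its status in the ventricle is HIDATA in place of a test, so neither value is read here as its level. The valve libraries held the connective tissue genes DCN and LUM at 1115 and 620 FPKM in DMVD and 1011 and 575 FPKM in control in the authors' deposited table, together with cardiomyocyte markers summing to 7901 FPKM in DMVD and 15547 FPKM in control.

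Among the 5 genes, EDNRB rose and NOS2 fell in the DMVD ventricle, and none passed in the valve. The 2 of 5 in the ventricle stand beside 3.08% of all tested genes there (1.92% higher and 1.16% lower in DMVD), and the 0 of 5 in the valve beside 0.419%. Without adjustment, EDN1 and ECE1 were under 0.05 in the valve, where 4.2% of all tested genes were. In the ventricle 11.3% of all tested genes were under 0.05 without adjustment. The median log2 fold change of the 5 genes was 0.11 in the ventricle, against -0.04 over all tested genes. In the valve it was 0.55, against 0.05 over all tested genes.

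**Figure D1:**
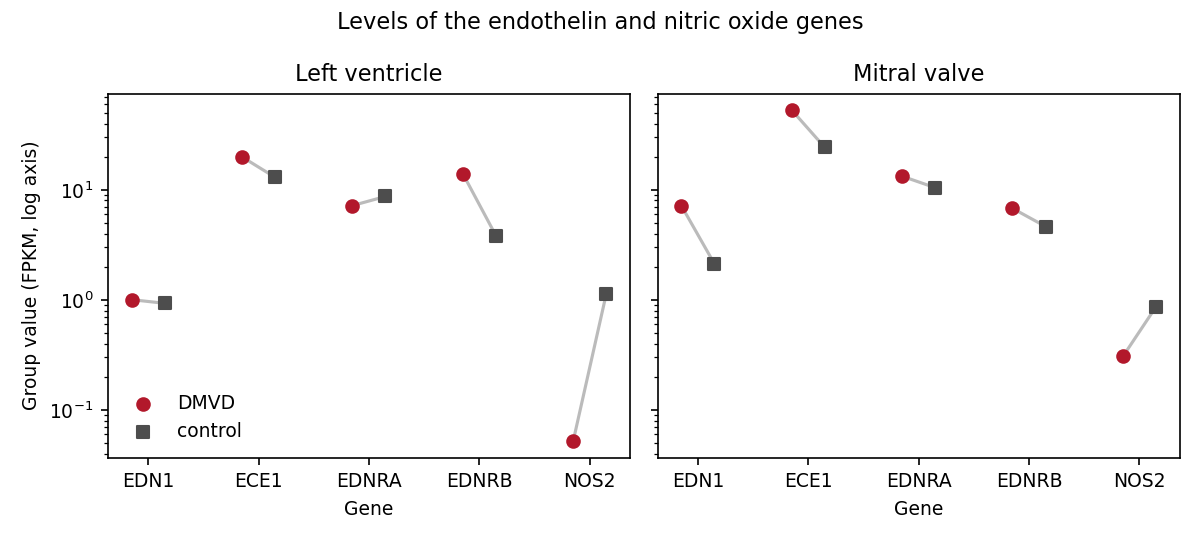
Group values in FPKM on a log axis for the 5 genes in left ventricle (left panel) and mitral valve (right panel), with DMVD as circles and control as squares; each point is 1 group value of the authors, without an error. EDNRB stands at 14.1 FPKM in the DMVD ventricle against 3.84 FPKM in control, and NOS2 is the lowest gene in the DMVD group of both tissues.

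EDN1 encodes preproendothelin-1, the precursor of the ligand (gene ENSCAFG00000009794, chromosome 35, 11809065 to 11815681, CanFam3.1). In the authors' deposited table it had 7.20 FPKM in the DMVD valve and 2.13 FPKM in the control valve. The DMVD value was thus 3.39-fold the control value, with a log2 fold change of 1.76 ± 0.60 and a 95% interval of 0.58 to 2.94. Its unadjusted p of 0.00349 was the 173rd smallest of the valve, and its adjusted p was 0.299, so it did not pass. With this SE, a log2 difference of 2.24 would have been needed to pass. The ventricle held little EDN1: the authors' deposited table gives 1.01 FPKM in DMVD and 0.930 FPKM in control. Those values differed by 0.11 ± 0.64 on the log2 scale, with a 95% interval of -1.15 to 1.37 (the authors' test, adjusted p = 1.0).

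ECE1, the protease that releases active endothelin (ENSCAFG00000014920, chromosome 2, 77678060 to 77793948, CanFam3.1), was the most abundant of the 5 genes in all 4 groups. Its values in the authors' deposited table were 53.1 FPKM in the DMVD valve and 24.3 FPKM in the control valve. The DMVD valve stood 2.19-fold above the control valve, a log2 fold change of 1.13 ± 0.53 with a 95% interval of 0.09 to 2.17, and the unadjusted p of 0.0337 became an adjusted p of 0.997. For the ventricle the authors' deposited table lists 19.9 FPKM in DMVD and 13.0 FPKM in control. The ventricle log2 fold change was 0.62 ± 0.42 (the authors' test, adjusted p = 0.681). Ligand and protease therefore both had higher DMVD values in both tissues, and neither passed in either. The level of ECE1 was 7.37 times that of EDN1 in the DMVD valve and 11.4 times in the control valve. In the ventricle the same ratio was 19.8 in DMVD and 14.0 in control. The log2 fold change of EDN1 minus that of ECE1 was 0.63 in the valve and -0.51 in the ventricle. The SE of EDN1 alone was 0.60 and 0.64, so neither ratio was shown to differ between DMVD and control.

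EDNRA, the receptor that raises calcium and contracts smooth muscle (ENSCAFG00000007768, chromosome 15, 45822788 to 45876305, CanFam3.1), lay between 7.19 and 13.3 FPKM in the 4 groups of the authors' deposited table. The authors' deposited table gives 7.19 FPKM in the DMVD ventricle and 8.71 FPKM in the control ventricle. In the valve the authors' deposited table has 13.3 FPKM in DMVD and 10.5 FPKM in control. The log2 fold changes were -0.28 ± 0.45 in the ventricle (the authors' test, adjusted p = 0.984) and 0.35 ± 0.49 in the valve (adjusted p = 1.0). Their 95% intervals, -1.15 to 0.60 and -0.61 to 1.30, leave room for a difference of about 1 log2 unit, so neither shows that EDNRA was unaltered.

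EDNRB, the receptor of endothelium and of several other cell types (ENSCAFG00000005187, chromosome 22, 31414366 to 31437626, CanFam3.1), rose in the DMVD ventricle. Its value there was 14.1 FPKM, against 3.84 FPKM in the control ventricle, in the authors' deposited table. That is a 3.66-fold difference with a 95% interval of 2.07 to 6.49, or a log2 fold change of 1.87 ± 0.42 (the authors' test, adjusted p = 0.000796). By unadjusted p it was 150th of the 13788 tested genes. Among tested genes of the ventricle its level stood at percentile 74.3 in DMVD and 44.7 in control. The valve values were closer, with 6.79 FPKM in DMVD and 4.64 FPKM in control in the authors' deposited table. The valve log2 fold change was 0.55 ± 0.49, with a 95% interval of -0.41 to 1.51 (the authors' test, adjusted p = 1.0).

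The balance of the receptor transcripts was opposite in the DMVD ventricle to that in the other groups. EDNRB made up 66.2% of the summed EDNRA and EDNRB FPKM in the DMVD ventricle and 30.6% in the control ventricle. In the valve its share was 33.8% in DMVD and 30.7% in control. The log2 ratio of EDNRB to EDNRA was thus 2.15 higher in the DMVD than in the control ventricle (SE 0.61). It was 0.20 higher in the DMVD than in the control valve (SE 0.69). Each SE comes from the errors of both genes, taken as independent. The ventricle shift includes the EDNRB difference of 1.87 given above. The ventricle and valve shifts were not tested against each other. The summed receptor level was 21.3 FPKM in the DMVD ventricle and 12.5 FPKM in the control ventricle. For the valve the sums were 20.1 FPKM in DMVD and 15.1 FPKM in control.

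**Figure D2:**
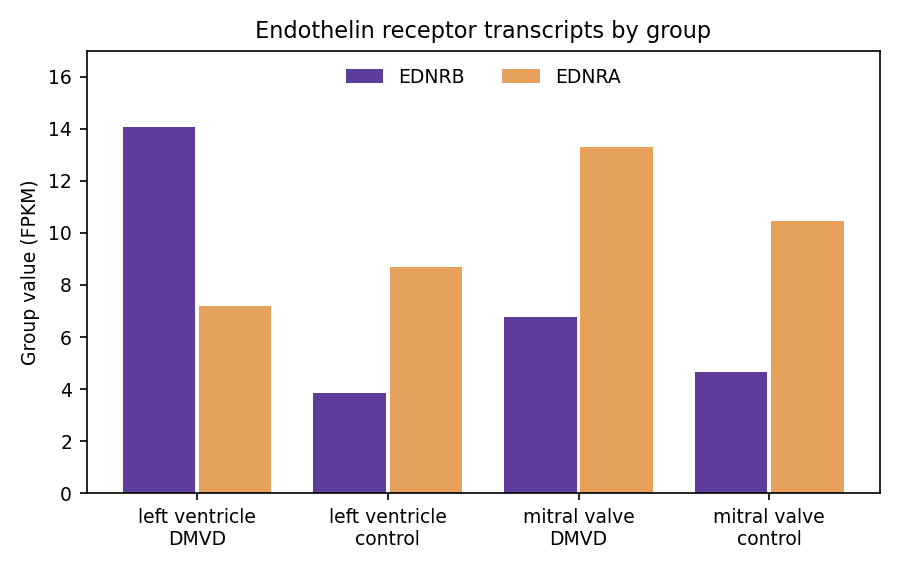
Group values in FPKM of EDNRB and EDNRA side by side in the 4 groups, without errors since each bar is 1 group value of the authors. EDNRB is above EDNRA only in the DMVD ventricle, at 14.1 against 7.19 FPKM, and below it in the other 3 groups.

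Endothelial markers were also higher where EDNRB rose. All 9 matched endothelial markers had higher values in the DMVD ventricle, with a sum of 209 FPKM in DMVD and 100.3 FPKM in control in the authors' deposited table. Of these, ROBO4 (1.68 ± 0.43) and VWF (1.79 ± 0.49) passed, with adjusted p values of 0.00565 and 0.0126, whereas the endothelial cadherin CDH5 had 0.21 ± 0.48 and did not. The same 9 markers summed to 139 FPKM in the DMVD valve and 70.4 FPKM in the control valve in the authors' deposited table, and all were higher in DMVD, where EDNRB did not pass. One of them, the endothelial sialomucin EMCN, passed in the valve, with 25.5 FPKM in DMVD and 4.93 FPKM in control in the authors' deposited table (2.37 ± 0.53, adjusted p = 0.00574). None of the 9 was at 0 in any group. In bulk tissue, more cells of a type and more RNA per cell cannot be told apart. The part of endothelial transcripts in the EDNRB result was not tested.

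NOS2, the inducible nitric oxide synthase (ENSCAFG00000018642, chromosome 9, 42171730 to 42208588, CanFam3.1), fell in the DMVD ventricle and was at a low level in all 4 groups. The authors' deposited table lists 0.0519 FPKM in DMVD and 1.13 FPKM in control. This was 21.8-fold lower in DMVD, a log2 fold change of -4.45 ± 1.21 with a 95% interval of -6.81 to -2.09 (the authors' test, adjusted p = 0.0114). The size of a difference between such low values depends on how near 0 the lower one lies. After an addition of 1 FPKM to each group it was -1.02, and after 0.1 FPKM it was -3.02. NOS2 stood at percentile 1.72 of tested genes in the DMVD ventricle and 16.2 in the control ventricle. NOS2 did not enter the test when the adjustment was confined to genes averaging 1 FPKM or more. In the valve the authors' deposited table has 0.306 FPKM in DMVD and 0.866 FPKM in control. The valve log2 fold change was -1.50 ± 0.92, with a 95% interval of -3.31 to 0.31 (the authors' test, adjusted p = 1.0).

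Markers of macrophages, in which NOS2 is best known, had higher values in the DMVD ventricle. The 5 matched macrophage markers, CD68, CD163, C1QA, C1QB and C1QC, summed to 71.8 FPKM in the DMVD ventricle and 28.5 FPKM in the control ventricle in the authors' deposited table. All 5 were higher in DMVD, C1QB passed at 1.57 ± 0.45 (the authors' test, adjusted p = 0.0198), and none was at 0. The 6 matched neutrophil markers summed to 378 FPKM in the DMVD ventricle and 14.2 FPKM in the control ventricle, and the 4 matched erythroid markers to 3604 FPKM in DMVD and 62.6 FPKM in control, in the authors' deposited table. All 5 tested neutrophil markers and all 4 erythroid markers passed, with higher values in DMVD. Mast cell and pericyte markers had lower sums in the DMVD ventricle. The 4 matched mast cell markers gave 1.68 FPKM in the DMVD ventricle and 5.03 FPKM in the control ventricle, and the 6 pericyte markers 53.4 FPKM in DMVD and 88.0 FPKM in control, in the authors' deposited table. Of the mast cell markers, CPA3 passed (-2.55 ± 0.66, the authors' test, adjusted p = 0.00702). KIT (-1.42 ± 0.55) and MS4A2 (-0.34 ± 0.74) did not pass, and HDC was not tested. The part of these cell types in the results for EDNRB and NOS2 was not tested.

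In the valve, where EDN1 and ECE1 had their higher values in DMVD, markers of blood and immune cells also had higher sums and those of heart muscle a lower one. The macrophage markers summed to 209.5 FPKM in DMVD and 66.8 FPKM in control, the neutrophil markers to 43.3 FPKM in DMVD and 8.57 FPKM in control, and the erythroid markers to 608 FPKM in DMVD and 35.8 FPKM in control, in the authors' deposited table. C1QB (2.12 ± 0.55), S100A9 (3.62 ± 0.97) and the haemoglobin gene HBA (4.13 ± 0.65) passed, 1 from each list. The mast cell markers gave 1.87 FPKM in DMVD and 1.09 FPKM in control, and the pericyte markers 73.1 FPKM in DMVD and 88.5 FPKM in control, in the authors' deposited table, and none of either list passed. Of the 7 cardiomyocyte markers, 6 were lower in DMVD and MYL3 passed (-5.19 ± 0.68). Of the 6 tested smooth muscle markers, 4 were higher in DMVD and 2 lower. All 5 tested fibroblast and valve interstitial cell markers were higher in DMVD, each by less than its SE. No smooth muscle or fibroblast marker passed. The neutrophil marker CXCR2 and the erythroid marker HBM were listed at 0 in the control valve. The part of these cell types in the values of EDN1 and ECE1 was not tested.

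**Figure D3:**
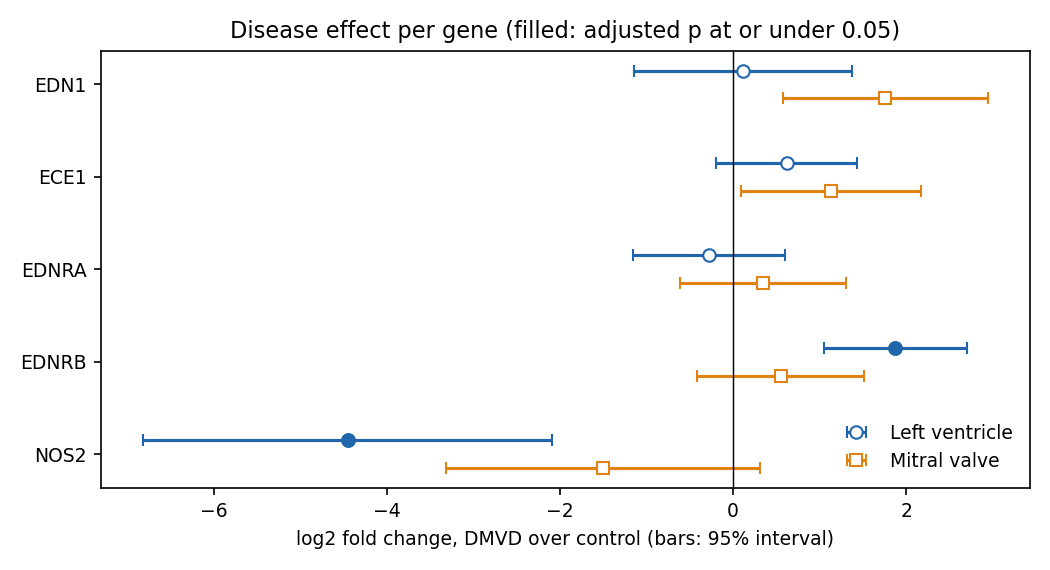
Log2 fold changes, DMVD over control, of the 5 genes in left ventricle (circles) and mitral valve (squares), with bars for the 95% interval from the SE of the authors' test; filled symbols passed an adjusted p of 0.05. EDNRB (1.87) and NOS2 (-4.45) in the ventricle are filled, and in the valve EDN1 (1.76) and ECE1 (1.13) have intervals that lie above 0 without passing.

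The disease effects of the tissues were compared gene by gene, valve minus ventricle. None of the 5 genes passed, against 0.107% of the 13099 genes compared, and all 5 had an adjusted p of 1.0. The difference was -1.32 ± 0.65 for EDNRB, 1.65 ± 0.88 for EDN1 and 2.95 ± 1.52 for NOS2, with unadjusted p values of 0.0402, 0.0614 and 0.0522. Of all genes compared, 2.66% were under 0.05 without adjustment, as EDNRB was. For EDNRA it was 0.62 ± 0.66 and for ECE1 0.51 ± 0.68. The rise of EDNRB and the fall of NOS2 were therefore not shown to differ between ventricle and valve. This test takes the tissues as independent, although 4 dogs gave both.

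Valve and ventricle levels were set side by side without a test, because the tables may have been scaled separately. The valve libraries also held heart muscle transcripts, with cardiomyocyte markers summing to 15547 FPKM in control and 7901 FPKM in DMVD. In control dogs the valve value was 2.29 times the ventricle value for EDN1, 1.87 times for ECE1, 1.21 times for EDNRB, 1.20 times for EDNRA and 0.764 times for NOS2. The median gene above 1 FPKM in both control groups was itself 0.31 log2 units higher in the valve, and relative to that shift only EDN1 (0.88) and ECE1 (0.59) remained higher in the valve. EDNRA and EDNRB lay within 0.05 of the shift, at -0.05 and -0.04, and NOS2 at -0.70. In DMVD dogs the corresponding values relative to a shift of 0.34 were 2.50 for EDN1, 1.07 for ECE1, 0.55 for EDNRA, -1.39 for EDNRB and 2.22 for NOS2. The NOS2 value sets 0.306 FPKM against 0.0519 FPKM, so its size depends on how near 0 the ventricle value lies. Only 1 DMVD dog gave both tissues, and the other DMVD dogs differed in breed and age between the tissues. Tissue therefore cannot be told apart from dog, breed and age in these DMVD values. Across the 4 groups EDN1 was highest in the DMVD valve and lowest in the control ventricle, and the ventricle groups differed by less than the SE. EDNRB was highest in the DMVD ventricle and lowest in the control ventricle. The valve groups lay between them and differed by 0.55 log2 units, little more than the SE of 0.49.

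The other genes of these systems were taken from 5 lists with 90 genes, of which 68 matched a row. In the ventricle 54 were tested, 1 rose, 1 fell and 52 did not pass, which is 3.70% against 3.08% of all tested genes. Without adjustment 8 of the 54 were under 0.05, where 11.3% of all tested genes were. In the valve 59 were tested and 0 passed, against 0.419%, and 4 of the 59 had an unadjusted p under 0.05, where 4.2% of all tested genes did. Their median log2 fold change was -0.19 in the ventricle and 0.08 in the valve.

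The gene that rose in the ventricle was RGS2, of the renin-angiotensin list, which shortens signalling by Gq-coupled receptors such as those for angiotensin and endothelin. Its values were 41.2 FPKM in DMVD and 4.25 FPKM in control in the authors' deposited table, a log2 fold change of 3.28 ± 0.82 (the authors' test, adjusted p = 0.00459). In the valve RGS2 had 25.3 FPKM in DMVD and 5.43 FPKM in control in the authors' deposited table, or 2.22 ± 1.01 (the authors' test, adjusted p = 0.891). The remaining 8 tested genes of that list did not pass in the ventricle. In the valve none of 8 passed, and ANPEP, an aminopeptidase that trims angiotensin III, had the smallest p, with 5.82 FPKM in DMVD and 1.43 FPKM in control in the authors' deposited table (2.02 ± 0.57, adjusted p = 0.0761). ANPEP would pass with an adjusted p of 0.0305 when the adjustment runs over both tissues together. After RGS2, the smallest p of the list in the ventricle was that of CMA1, a mast cell protease that can form angiotensin II. It had 0.204 FPKM in DMVD and 1.62 FPKM in control in the authors' deposited table (-2.99 ± 1.01, adjusted p = 0.0801). In the valve CMA1 was not tested and had the higher value in DMVD, with 0.454 FPKM against 0.213 FPKM in control in the authors' deposited table.

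The gene that fell was APLNR, the receptor for apelin, a peptide that opposes angiotensin II and raises nitric oxide in vessels. It had 0.777 FPKM in the DMVD ventricle and 7.15 FPKM in the control ventricle in the authors' deposited table, a log2 fold change of -3.20 ± 0.67 (the authors' test, adjusted p = 0.000212). After an addition of 1 FPKM to each group it was -2.20. The valve values of APLNR were 1.60 FPKM in DMVD and 3.65 FPKM in control in the authors' deposited table, or -1.19 ± 0.78 (the authors' test, adjusted p = 1.0). The only other kinin or apelin gene tested in the ventricle, the carboxypeptidase CPM, had 0.00 ± 0.80 there and 0.02 ± 0.75 in the valve.

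**Figure D4:**
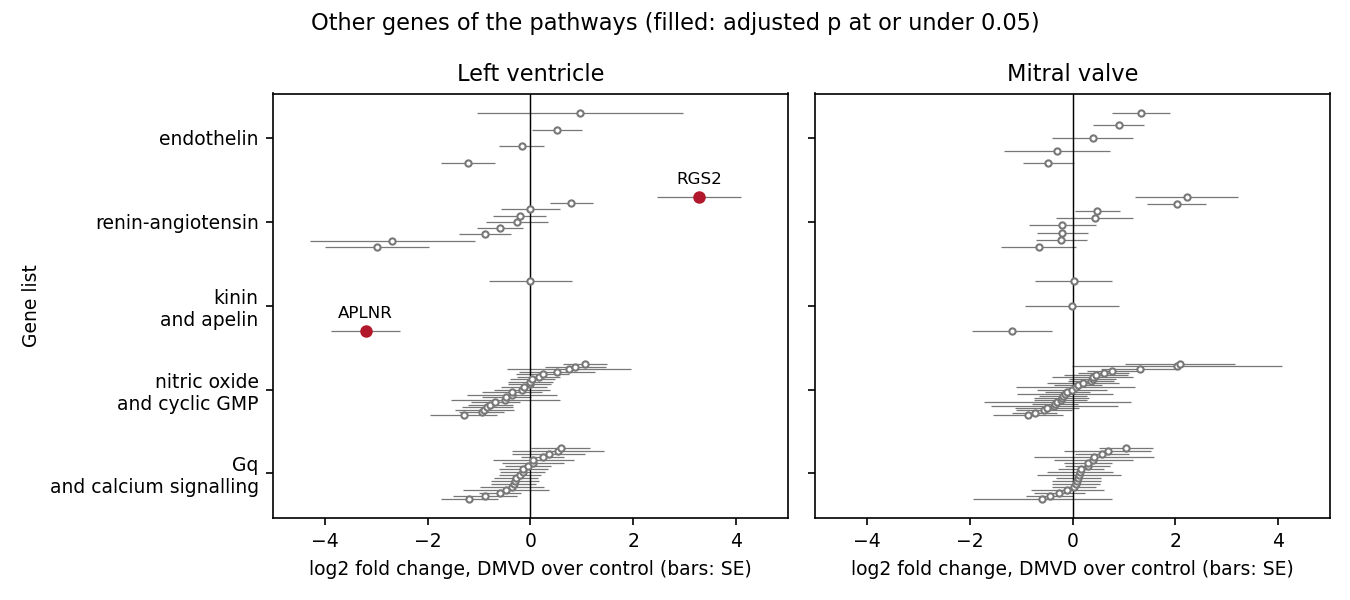
Log2 fold changes, DMVD over control, of the tested genes of the 5 lists in left ventricle (left) and mitral valve (right), with bars for the SE; filled points passed an adjusted p of 0.05. RGS2 (3.28) and APLNR (-3.20) in the ventricle are the filled points, and the valve panel has none.

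No gene passed in the other 3 lists. Of the endothelin list, 4 genes were tested in the ventricle and 5 in the valve, of which 1 in each tissue had an unadjusted p under 0.05. Its smallest p in both tissues was that of RGS4, another brake on Gq and Gi signalling, whose estimates had opposite signs: -1.21 ± 0.53 in the ventricle (the authors' test, adjusted p = 0.286) and 1.33 ± 0.56 in the valve (adjusted p = 0.767). PHACTR1 followed with 0.51 ± 0.49 in the ventricle and 0.89 ± 0.50 in the valve. The other ligands were scarce: EDN3 was at or under 0.142 FPKM in all groups, and EDN2 was listed at 0 in both ventricle groups and had 0.662 FPKM in the DMVD valve and 0.812 FPKM in the control valve, in the authors' deposited table.

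Of the nitric oxide and cyclic GMP list, 21 genes were tested in the ventricle and 25 in the valve, of which 3 in the ventricle and 0 in the valve had an unadjusted p under 0.05. In the ventricle the smallest p values belonged to VASP, a substrate of cyclic GMP-dependent kinase (1.06 ± 0.42, the authors' test, adjusted p = 0.195), and to GUCY1A3, a subunit of the nitric oxide receptor (-0.95 ± 0.44, adjusted p = 0.351). In the valve they belonged to GCH1, which makes the first step of the synthase cofactor tetrahydrobiopterin (2.09 ± 1.08, the authors' test, adjusted p = 1.0), and to the arginine transporter SLC7A1 (1.32 ± 0.77, adjusted p = 1.0). The neuronal synthase NOS1 was not tested in either tissue, and its largest value in the authors' deposited table was 0.0794 FPKM, in the DMVD valve. None of the 18 tested genes of the Gq and calcium list passed in either tissue, and 1 in each tissue had an unadjusted p under 0.05. The smallest p values there were those of the arrestin ARRB1 (-1.19 ± 0.55, the authors' test, adjusted p = 0.346) and the receptor kinase ADRBK1 (-0.60 ± 0.41, adjusted p = 0.694) in the ventricle, and of the kinase PRKCD (1.04 ± 0.52, adjusted p = 1.0) and the calcium release channel ITPR2 (0.57 ± 0.53, adjusted p = 1.0) in the valve. None of the 52 genes of the 5 lists that could be compared passed the test of a difference between the tissues.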

How the data were processed

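RNA sequencing libraries of left ventricle and mitral valve were grouped by the tissue and diagnosis in the labels. Per the submitters' processing notes, cutadapt, Bowtie, TopHat and the genome build CanFam3.1 were used; which program computed the gene values was not given in those notes or the labels. Per the file headers, the authors' tables hold 1 value per group, read as FPKM from the column layout, with no depth per library. The authors' deposited p-value is unadjusted. The test statistic that the authors deposited is a score. Their log2 fold change is of control over DMVD and was recomputed here as DMVD over control. For the genes of the rule the deposited fold change is opposite in sign to the statistic, and the recomputed one has the same sign. The deposited p-value of a tested gene is that of its statistic under a two-sided normal distribution, to within 2.84e-06 in the ventricle and 2.64e-06 in the valve. Dividing the log2 fold change by the statistic therefore gave the SE, which is a model error of the authors' test and not a spread between dogs. The authors' p-values thus rest on their model for 2 to 4 libraries per group, and how far that model drew on the spread between libraries is not shown by the tables.

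Benjamini-Hochberg adjustment ran over every tested gene of a tissue, with a threshold of 0.05. Differences between tissues were tested by the difference of the log2 fold changes over the root of the summed squared SE, two-sided, with Benjamini-Hochberg over 13099 genes. The calculations were run on simulated fold changes drawn with the same SE. Such a run checks the arithmetic and cannot check the SE itself or the spread between dogs. Symbols came from the tables, with UniProt entry names translated, and no other gene listed shares the locus of any of the 5 genes. The start of each locus counts from 0 in the tables and is given here from 1. The genes named, beside the 9 of the rule, were those of the 5 pathway lists that passed, and otherwise the 2 of a list with the smallest p in a tissue. EDN2, EDN3 and NOS1, named as the other ligands and synthase, and the individual markers of cell types fall outside that rule and were chosen after their values were seen. The genes, lists and tests were chosen with earlier results of these data known. No sequences were used here. Tables were handled with pandas 2.3.3 and numpy 2.4.6, p-values with scipy 1.17.1 and figures with matplotlib 3.10.9, all under Python 3.11.15.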

Additional observations from a re-analysis of the deposited data

How the results depend on the processing

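Alternatives changed the genes that entered the adjustment, the scaling, the adjustment across tissues and the pseudocount. EDNRB passed in the ventricle under the 4 alternatives with a test (the authors' test, adjusted p = 0.000641 to 0.00146), and NOS2 under the 3 it could enter (adjusted p = 0.0112 to 0.0192). With a mean of at least 1 FPKM required, 1 of the 5 genes passed in the ventricle, since NOS2 and EDN1 were not tested. EDN1 in the valve had, by the authors' test, adjusted p = 0.139 to 0.359. Adjusting over both tissues together brought 98 valve genes past the threshold in place of 62, among them 1 gene of the pathway lists, ANPEP. With 1 FPKM added to both groups the NOS2 value was -1.02 in the ventricle and -0.51 in the valve, and with 0.1 FPKM it was -3.02 in the ventricle. Relative to the median gene, 2 of the 5 genes were higher in the control valve than in the control ventricle, in place of 4. The disease effects of the 5 genes kept their direction in these runs, but the runs could not test that direction. Filters, adjustment and equal pseudocounts cannot reverse a sign. The centring shifts (-0.02 in the ventricle, 0.04 in the valve) were smaller than the effect of any of the 5 genes. Of single pathway genes, only ANPEP with adjustment over both tissues and APLNR with 1 FPKM added were followed. Leaving out a library was not run because the tables hold group values. No paired analysis was possible because the tables carry no value per library. Precision also limits the calls: NOS2 would have needed a log2 difference of 3.43 to pass in the valve.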

Other observations

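The genes with the most similar pattern to EDNRB over 3 log2 values (ventricle effect, valve effect, and control valve over control ventricle) among 8916 candidates were RALB, ABRACL and KDM6B, at distances of 0.24, 0.24 and 0.33. For NOS2 they were FOXR1, RCOR2 and SDSL, at distances of 0.67, 0.78 and 0.88. Candidates had a mean of at least 1 FPKM in both tissues. NOS2 itself averaged 0.593 FPKM in the ventricle and 0.586 FPKM in the valve, so genes as scarce as NOS2 could not be named. With 3 values per gene, such likeness is a description only.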
